A study of Homo sapiens with 6 samples.

Results

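The RNA of 9 receptors through which myeloid cells read growth factors was followed in MOLM-13, a human acute myeloid leukaemia line that carries the MLL-AF9 translocation, after LAMP5, a lysosome-associated membrane protein gene, had been targeted with a hairpin. The 9 genes (CSF3R, CSF1R, CSF2RA, CSF2RB, FLT3, KIT, IL3RA, IL6R and IL6ST) were taken by symbol from the 39771 gene identifiers of the deposited table, and each matched 1 row. The 2 groups of libraries compared all came from cells that carried a lentiviral hairpin and had passed puromycin selection. The 2 shNT libraries received a non-targeting hairpin, and the 4 shLAMP5 libraries a hairpin against LAMP5. The libraries are named by group and by the number in their titles. Which LAMP5 hairpin each library received and at which of the harvest times it was taken are not known from the labels. Nothing states that libraries of a group were separate cultures, so a p-value here reflects library-to-library spread, part of which may be technical.

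These receptors fall into families that signal in different ways. CSF1R, FLT3 and KIT are receptor tyrosine kinases of the same class: a ligand joins a pair of receptor chains, which then phosphorylate each other. The others have no kinase of their own and use Janus kinases and STAT transcription factors. CSF3R binds granulocyte colony-stimulating factor (G-CSF) and pairs with itself. CSF2RA and IL3RA bind granulocyte-macrophage colony-stimulating factor and interleukin-3, and both signal through the shared beta chain CSF2RB. IL6R binds interleukin-6 and signals through the shared chain IL6ST (gp130). MOLM-13 is known to carry an internal tandem duplication of FLT3, which makes that receptor signal without ligand; the table sums RNA by gene and does not separate the alleles.

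No unit is stated for the values, which were read as TPM (a transcript's share of the library after length correction). On that reading they are scaled by transcript length and can be compared between genes. Column totals ran from 897026 to 912565, the number of rows at or above 1 TPM from 12192 to 12661, and the read depth behind them is unknown. LAMP5 itself was at 170 TPM (shNT 1) and 282 TPM (shNT 2) in the controls and between 65.6 and 86.7 TPM in the shLAMP5 libraries, so all 4 lay on the side their labels give. The library labelled shLAMP5 2 stood apart from the other shLAMP5 libraries. Across genes its Spearman correlation with shLAMP5 1, 3 and 4 was 0.928 to 0.942, whereas those 3 reached 0.956 to 0.986 with one another, and its own values with shNT 1 and shNT 2 were 0.957 and 0.924. For shLAMP5 1 and 4 the correlations with the controls were 0.959 to 0.979. For shLAMP5 3 they were 0.946 with shNT 1 and 0.930 with shNT 2, about as low as for shLAMP5 2. In shLAMP5 2, 1 row without a symbol took 7.26% of the total, where the highest row of every other library took 1.75% to 2.41%. For each receptor the log2 fold change is given with and without it. Of the markers of blasts and monocytes (CD33, MPO, ITGAM, CD14, LYZ, CD68, FCGR1A, CSF1R and PTPRC), all 9 reached 1 TPM in at least 1 library, with CD33 between 61.7 and 141 TPM and CD14 at most 1.40 TPM.

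Of the 9 receptors, all were tested (at least 1 TPM in at least 2 libraries) and 8 had a positive log2 fold change, computed on log2(TPM + 1) as shLAMP5 less shNT, beside 49.3% of all genes tested, with FLT3 as the 1 negative (without shLAMP5 2, KIT in its place). Their median was 0.52, against -0.0060 over all 13072 genes tested. None of the 9 passed an adjusted p of 0.05 in limma with Benjamini-Hochberg adjustment over all genes, and neither did any other gene (0% of genes called). At an unadjusted p under 0.05 the count was 3 of 9, all higher in shLAMP5 (CSF3R, CSF2RA and IL6ST), beside 3.72% of all genes tested in that direction, and 0 of 9 were lower, beside 5.25%. That count rested on single libraries. It was 5 of 9 without shLAMP5 2, with CSF2RB and IL6R added, beside 10.6% of genes. It was 2 of 9 without shNT 1 (CSF3R and CSF1R), beside 2.09%, and 1 of 9 (CSF3R) without shNT 2, shLAMP5 1, shLAMP5 3 or shLAMP5 4, beside 1.53% to 3.59%. In 4 of 9 (CSF3R, CSF1R, CSF2RA and IL6ST) every shLAMP5 library lay above both shNT libraries, beside 8.25% of genes. With libraries scaled to equal medians that count was 3 of 9, beside 10.5%, because CSF1R then overlapped. Without shLAMP5 2 it was 6 of 9, beside 22.5% of genes, with CSF2RB and IL6R added. The receptors had been chosen with results of these libraries known, so these shares are a description.

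**Figure D1:**
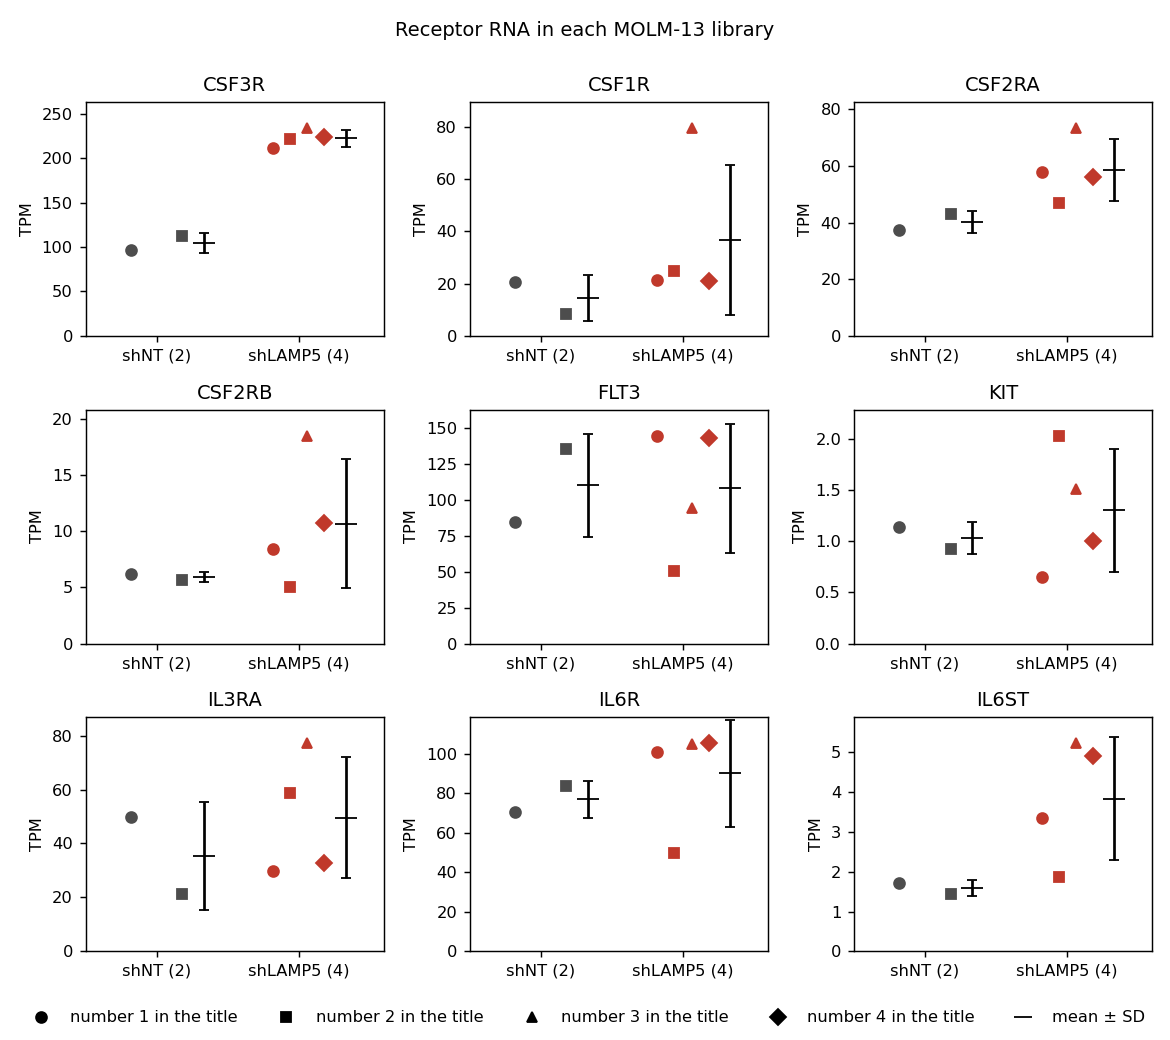
TPM of each of the 9 receptors in the 2 shNT (grey) and 4 shLAMP5 (red) libraries, with the marker shape giving the number in the library's title and the black bar the mean ± SD of the group. CSF3R separates the groups with little spread inside them, whereas FLT3, KIT, IL3RA and IL6R overlap, and the library shLAMP5 3 (triangle) holds the highest value of 6 of the 9 receptors.

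CSF3R gave the difference with the smallest error. It measured 96.3 and 112 TPM in shNT 1 and 2, and 211, 221, 234 and 223 TPM in shLAMP5 1 to 4. The groups did not overlap, and the shLAMP5 libraries differed among themselves by a factor of 1.11, the smallest such spread of the 9 receptors. That is a log2 fold change of 1.09 ± 0.17 (SE; 95% interval 0.70 to 1.48). In limma its unadjusted p of 0.000216 ranked 7 of 13072 genes, and its adjusted p was 0.252. By the exact two-sided permutation test p was 0.0667, the smallest that the 15 splits of 6 libraries into 2 and 4 allow. Leaving out any 1 library kept the log2 fold change between 0.98 and 1.20, and it was 1.09 without shLAMP5 2. Under limma's library weights CSF3R passed the test (log2 fold change 1.08, limma adjusted p 0.0215), and over the other alternatives the adjusted p ran from 0.104 to 1.

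CSF1R, the receptor of macrophage colony-stimulating factor and interleukin-34, had the largest fold change of the 9 and a wide error. Its values were 20.8 and 8.33 TPM in shNT 1 and 2, and 21.3, 24.9, 79.7 and 21.1 TPM in shLAMP5 1 to 4. In shLAMP5, 3 libraries lay within 5 TPM of shNT 1, and shLAMP5 3 stood far above all others. The log2 fold change was 1.16 ± 0.57 (SE; interval at 95%, -0.17 to 2.49, limma adjusted p 0.590), and the exact permutation p was 0.333. It was 0.55 without shNT 2, 0.71 without shLAMP5 3, 1.26 without shLAMP5 2 and 1.77 without shNT 1. Of the other 8 blast and monocyte markers, 4 (CD68, FCGR1A, ITGAM and PTPRC) were also highest in shLAMP5 3 and 4 were not: CD14 and CD33 were highest in shLAMP5 4, LYZ in shLAMP5 1 and MPO in shNT 2. In shLAMP5 3, CD68 was 278 TPM against 85.2 TPM in both shNT libraries, and MPO was 17.2 TPM against 17.6 and 43.2 TPM. The whole list of 9 summed to 2258 to 6364 TPM in shNT and 1676 to 10220 TPM in shLAMP5, most of it LYZ, and the highest sum was in shLAMP5 1. The part of these markers in the CSF1R value was not tested. In bulk RNA, more cells of a type and more RNA per cell cannot be told apart.

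The GM-CSF and interleukin-3 receptor chains differed from one another in pattern. CSF2RA, the ligand-binding chain for GM-CSF, measured 37.4 and 43.0 TPM in shNT 1 and 2, and 57.8, 47.0, 73.4 and 56.0 TPM in shLAMP5 1 to 4. The groups did not overlap, though shLAMP5 2 lay close to shNT 2. Its log2 fold change was 0.52 ± 0.22 (SE; 95% interval 0.0036 to 1.03). Limma gave an unadjusted p of 0.0487 and an adjusted p of 0.554, and the exact permutation test 0.0667. Without shLAMP5 2 the estimate was 0.61. The shared beta chain CSF2RB was lower in level, at 6.23 and 5.65 TPM in shNT 1 and 2, and 8.42, 5.004, 18.5 and 10.7 TPM in shLAMP5 1 to 4. Here 3 of 4 shLAMP5 libraries lay above both shNT libraries and shLAMP5 2 lay below both. The log2 fold change of 0.62 (SE 0.41, limma adjusted p 0.684) became 0.33 without shLAMP5 3 and 0.90 without shLAMP5 2. A pseudogene of the beta chain, CSF2RBP1, was listed at 0 in every library.

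IL3RA, the ligand-binding chain for interleukin-3 and known as CD123, an antigen of leukaemic blasts, varied more inside the groups than between them. It measured 49.6 and 21.3 TPM in shNT 1 and 2, and 29.96, 58.6, 77.2 and 32.7 TPM in shLAMP5 1 to 4. The shNT libraries lay 2.33-fold apart, and shNT 1 exceeded shLAMP5 1 and shLAMP5 4. The log2 fold change was 0.48 ± 0.46 (SE; interval at 95%, -0.58 to 1.55, limma adjusted p 0.792). Its sign rested on a single control: it was -0.11 without shNT 2 and 1.07 without shNT 1. Without shLAMP5 2 it was 0.37. CSF2RA and IL3RA both lie in the pseudoautosomal region that the sex chromosomes share; each has 1 row in the table, and the labels do not say how reads of identical copies were assigned.

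FLT3, the receptor of FLT3 ligand, had the highest mean of the 9 in shNT, though CSF3R was higher in shNT 1, and showed no difference between groups that these libraries could resolve. It measured 84.8 and 135 TPM in shNT 1 and 2, and 145, 50.6, 94.0 and 143 TPM in shLAMP5 1 to 4. Averaged by group, shNT gave 110 ± 35.8 TPM (SD, n = 2), shLAMP5 108 ± 44.9 TPM (SD, n = 4). High values (shNT 2, shLAMP5 1 and shLAMP5 4) and low ones (shNT 1, shLAMP5 2 and shLAMP5 3) occurred in both groups. The log2 fold change of -0.10 had a 95% interval of -1.11 to 0.90 (limma adjusted p 0.963, exact permutation p 1), so a 2-fold difference in the lower direction is inside the interval. The estimate was 0.23 without shNT 2, 0.22 without shLAMP5 2 and -0.44 without shNT 1.

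KIT, the receptor of stem cell factor, was near the lower limit of the tested range. It measured 1.14 and 0.922 TPM in shNT 1 and 2, and 0.650, 2.03, 1.51 and 1.01 TPM in shLAMP5 1 to 4. The groups overlapped, and the log2 fold change was 0.14 ± 0.30 (SE; interval at 95%, -0.55 to 0.84, limma adjusted p 0.915), or -0.0027 without shLAMP5 2. On average FLT3 stood far above KIT in both groups, at 110 against 1.03 TPM in shNT and 108 against 1.30 TPM in shLAMP5.

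The chains of the interleukin-6 receptor differed in abundance and in pattern. IL6R measured 70.4 and 83.6 TPM in shNT 1 and 2, and 101, 49.7, 105 and 105 TPM in shLAMP5 1 to 4. In 3 shLAMP5 libraries it thus lay above both controls, and in shLAMP5 2 below both. Its log2 fold change was 0.17 (SE 0.33, limma adjusted p 0.908), 0.43 without shLAMP5 2 and 0.046 without shNT 1. The signalling chain IL6ST was scarce, at 1.72 and 1.44 TPM in shNT 1 and 2, and 3.34, 1.88, 5.23 and 4.91 TPM in shLAMP5 1 to 4. All 4 shLAMP5 libraries lay above both controls, shLAMP5 2 by the smallest margin. This gave a log2 fold change of 0.84 ± 0.34 (SE; 95% interval 0.069 to 1.62). The unadjusted limma p was 0.0364, the adjusted p 0.534 and the exact permutation p 0.133. Without shLAMP5 2 the estimate was 1.07. At these levels the size depends on the pseudocount: it was 1.13 with 0.1 TPM added and 0.41 with 5 TPM added. The pseudogene IL6STP1 reached at most 0.0291 TPM.

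**Figure D2:**
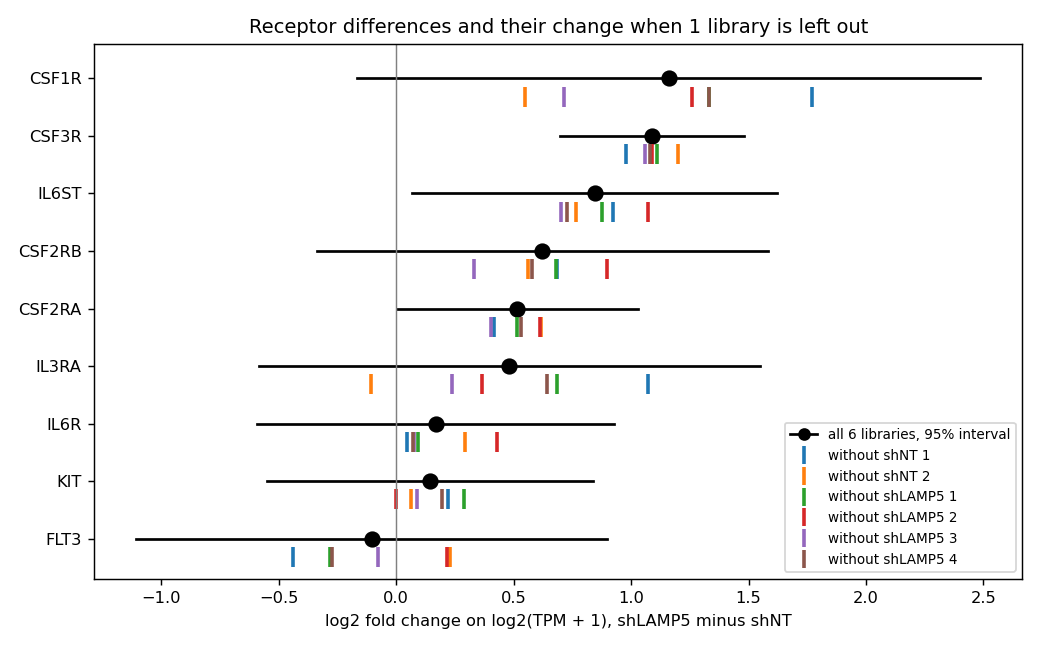
Log2 fold change of each receptor (shLAMP5 minus shNT on log2(TPM + 1)), as the estimate from all 6 libraries with its 95% interval (black) and, below it, the estimates with 1 library left out (coloured ticks). The ticks of CSF3R stay between 0.98 and 1.20, those of CSF1R run from 0.55 to 1.77, and those of FLT3, IL3RA and KIT fall on both sides of 0.

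Ranked by mean TPM, the order in shNT was FLT3, CSF3R, IL6R, CSF2RA, IL3RA, CSF1R, CSF2RB, IL6ST and KIT. The ranges of FLT3 and CSF3R overlapped there, as did those of CSF2RA and IL3RA, and the other neighbours were separate over the 2 libraries. In shLAMP5 CSF3R came first at 222 ± 9.52 TPM (SD, n = 4), with its lowest library above the highest of FLT3. The remaining order was the same, but from FLT3 down the ranges of all neighbours overlapped except CSF1R and CSF2RB. Ratios inside a library do not depend on how libraries are scaled. CSF3R was 1.14 and 0.830 times FLT3 in shNT 1 and 2, and 1.46, 4.37, 2.49 and 1.56 times FLT3 in shLAMP5 1 to 4, so the groups did not overlap. IL6R was 40.9 and 57.9 times IL6ST in shNT 1 and 2, and 30.2, 26.5, 20.03 and 21.5 times IL6ST in shLAMP5 1 to 4, again without overlap. The ratios of CSF2RA to CSF2RB, IL3RA to CSF2RB and CSF1R to FLT3 overlapped between groups. How often a ratio of any 2 genes separates the groups was not computed. Of single genes, 8.25% lay above both shNT libraries in all 4 shLAMP5 libraries and 13.5% below. CSF3R and IL6ST each separated the groups on their own, and IL6ST reached at most 5.23 TPM.

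**Figure D3:**
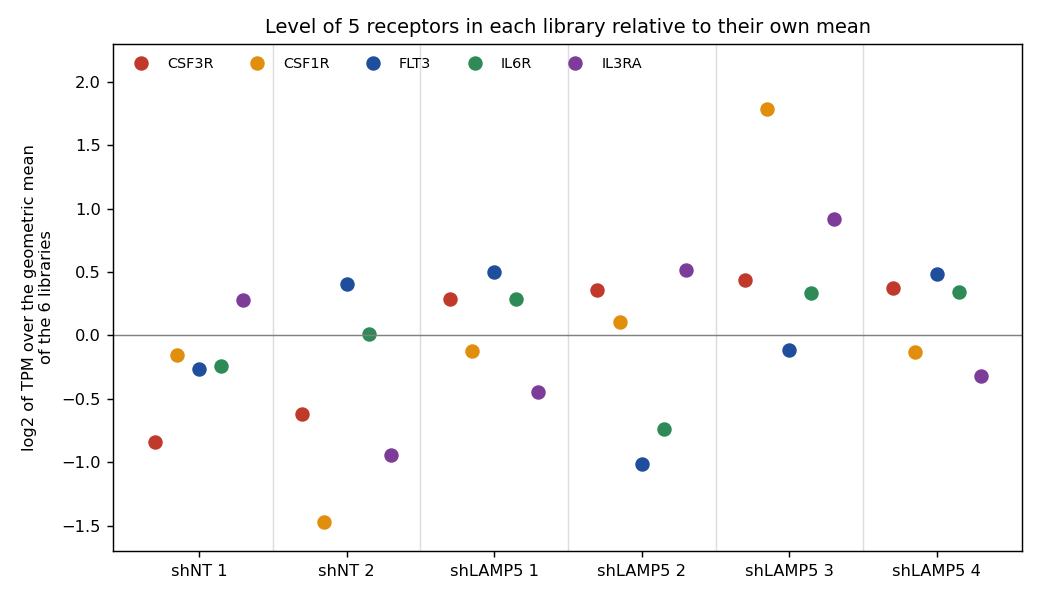
Level of CSF3R, CSF1R, FLT3, IL6R and IL3RA in each library, as log2 of TPM over that gene's geometric mean of the 6 libraries. CSF3R is below its mean in both shNT libraries and above it in all shLAMP5 libraries, while FLT3 and IL3RA lie on opposite sides of 0 in all 6 libraries.

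In these relative levels CSF3R followed the group labels. FLT3 and IL3RA followed neither label: FLT3 was above its own geometric mean in shNT 2, shLAMP5 1 and shLAMP5 4, and IL3RA was above its own in shNT 1, shLAMP5 2 and shLAMP5 3. Genes of like pattern were sought by Pearson correlation of log2(TPM + 1) over the 6 libraries among 4703 other genes with a mean of at least 20 TPM, as a description without a test. For CSF3R the closest were DNAJC4 (r = 0.984), a DnaJ-domain protein, PFDN5 (0.959), a prefoldin subunit, and NCF4 (0.959), a cytosolic subunit of the phagocyte NADPH oxidase, which measured 95.1 and 101 TPM in shNT 1 and 2 and 130 to 160 TPM in shLAMP5. For FLT3 they were ASCC3 (0.999), a DNA helicase, ANAPC7 (0.998), a subunit of the anaphase-promoting complex, and UQCRC2 (0.998), a subunit of respiratory complex III. At a correlation of at least 0.95, a bound set after the values were seen, 4 genes were like CSF3R, 43 like IL3RA, 241 like IL6R and 323 like FLT3. For the remaining receptors the counts were 11 (KIT), 44 (CSF2RA), 67 (IL6ST), 69 (CSF1R) and 90 (CSF2RB).

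Short stretches upstream of annotated receptor gene starts are shown for the genes whose groups did not overlap, with FLT3 and IL3RA for contrast, because PU.1, C/EBP, RUNX and STAT factors are known regulators of myeloid receptor genes. In RefSeq's windows (build GRCh38.p14), the 250 bases before each annotated start were searched on both strands for GAGGAA (PU.1 core), TTGCAA (C/EBP), TGTGGT (RUNX core) and TTCNNNGAA (STAT); the letters were chosen with the CSF3R window in view. All 9 receptors but CSF2RB had an entry, with 10 windows in all. Windows can overlap exons of other transcripts of the same gene: in GENCODE's annotation, an exon of a coding transcript covers all 250 bases of the CSF3R window printed from, and 169 bases of the IL3RA window. A second CSF3R window, with 0 bases covered, held no match, and neither did a second CSF1R window. Capitals mark the matches, sequences run 5′ to 3′ on the strand of the gene, and the FLT3 match is on the opposite strand.
CSF3R, C/EBP, chr1:36482944-36482973, minus strand: gctcggaaggtgTTGCAAtccccagccccc
CSF3R, PU.1 core, chr1:36483007-36483036, minus strand: gctccttcctggGAGGAAggggctgcctgt
CSF1R, RUNX core, chr5:150086608-150086637, minus strand: atttccaaactcTGTGGTtgccttgcctag
CSF1R, PU.1 core, chr5:150086555-150086584, minus strand: gcccaaggagGAGGAAGAGGAAaacaagac
CSF2RA, PU.1 core, chrX:1268739-1268768, plus strand: atcctatgaaatGAGGAAgcaggggaggga
CSF2RA, PU.1 core, chrX:1268782-1268811, plus strand: tatgatgacacaGAGGAActctgaagggag
FLT3, PU.1 core, chr13:28100646-28100675, minus strand: ctggggagagggTTCCTCcccccttccact
IL3RA, STAT, chrX:1336585-1336614, plus strand: tTTCAAAGAAagagtctttctTTCAAGGAA
The C/EBP letters were found in 1 of the 10 receptor windows (CSF3R) and in 4.73% of 35094 windows of all genes. The PU.1 letters were found in 5 of 10 (CSF3R, CSF1R, CSF2RA, FLT3 and IL6R) and in 23.6% of all windows. IL6R, whose groups overlapped, held 2 PU.1 matches, as many as CSF1R and CSF2RA. The IL6R matches are not printed. The RUNX letters were found in 1 of 10 (CSF1R) and in 11% of all, and the STAT letters in 1 of 10 (IL3RA) and in 6.57% of all. No match was found in the windows of KIT and IL6ST. Because the letters were chosen with the CSF3R window in view, these counts cannot show an enrichment. A match is a string of letters and no evidence of binding.

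Factors of these families were themselves measured. SPI1, which encodes PU.1, lay at 280 and 205 TPM in shNT 1 and 2 and at 238, 286, 466 and 282 TPM in shLAMP5 1 to 4, with overlapping groups. CEBPE, a C/EBP factor of granulocyte maturation, lay at 4.43 and 3.70 TPM in shNT and at 4.99 to 6.72 TPM in shLAMP5. Its log2 fold change was 0.48 (limma p 0.0477 before and 0.552 after adjustment). Its groups did not overlap, beside 8.25% of genes that lay above in the same way. For CEBPB the estimate was 0.93 on the log2 scale (adjusted p 0.524, limma), with shLAMP5 1 at 12.1 TPM just under shNT 1 at 12.3 TPM. CEBPA was at 0.76 with overlapping groups (adjusted p 0.676, limma), and CEBPD at 0.57 without overlap (adjusted p 0.601, limma). RUNX1 was at 0.0042 with overlapping groups (adjusted p 0.998, limma). Of the 13 myeloid transcription factors listed, 7 had positive and 6 negative values with a median of 0.0042, and none passed. The lowest p-values on the negative side belonged to MYB (-0.41) and GATA2 (-0.45), factors of progenitors.

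Ligands of the 9 receptors were nearly absent from the RNA. CSF3, CSF2, IL3 and IL34 were listed at 0 in every library, IL6 reached at most 0.432 TPM, FLT3LG at most 0.542 TPM and CSF1 at most 1.36 TPM. KITLG, stem cell factor, was the 1 of 8 ligands tested, at 2.66 and 1.96 TPM in shNT and 1.98 to 3.35 TPM in shLAMP5, a difference of 0.22 on the log2 scale (adjusted p 0.817, limma). Among 10 related receptors, 3 were tested and none passed: IL27RA, which also pairs with IL6ST, at 0.17, IL11RA, the interleukin-11 chain that pairs with it too, at 0.49, and the erythropoietin receptor EPOR at -0.19. The other receptors that share these chains, IL5RA, LIFR, OSMR and CNTFR, stayed at or below 0.251 TPM.

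**Figure D4:**
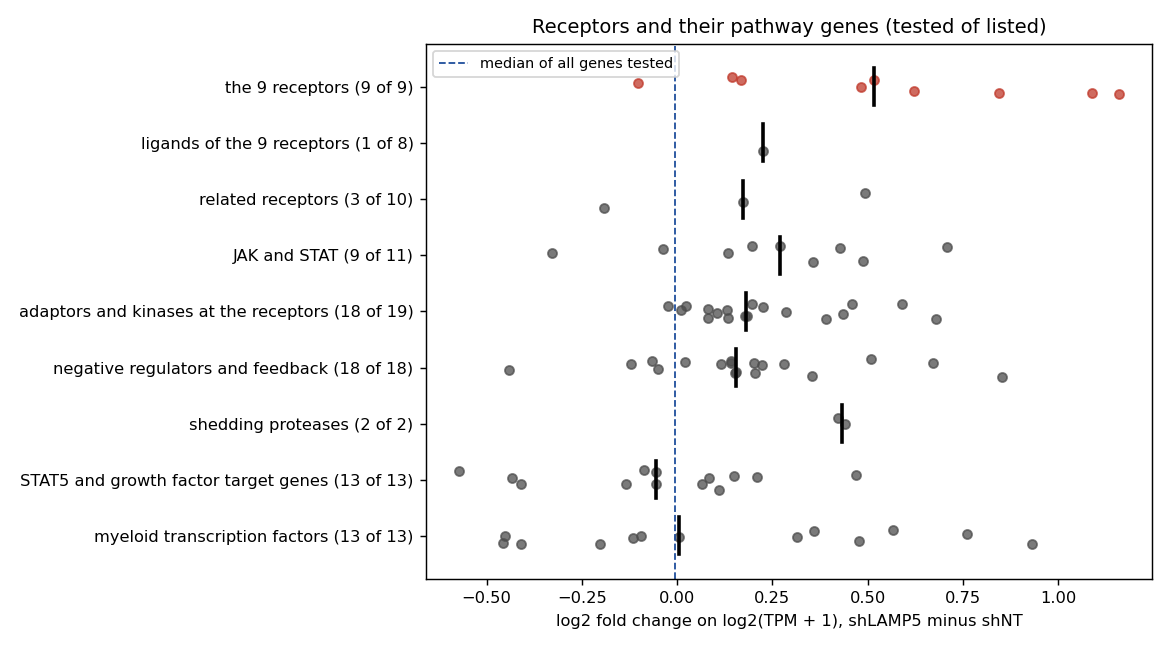
Log2 fold change (shLAMP5 minus shNT on log2(TPM + 1)) of the 9 receptors (red) and of each tested gene of the pathway lists (grey), with black bars at the list medians and a dashed line at the median of all genes tested. The receptor median is 0.52, the medians of JAK and STAT, adaptor and negative regulator lists lie between 0.15 and 0.27, and that of target genes is -0.056.

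Downstream of the receptors no gene passed the limma test after adjustment. Of 9 JAK and STAT genes tested, 7 had positive values (median 0.27), beside 49.3% of all genes tested. STAT2 was 31.7 and 22.7 TPM in shNT and 37.1, 37.5, 55.8 and 50.3 TPM in shLAMP5 1 to 4, or 0.71 as log2 fold change (adjusted p 0.520, limma). STAT5A and STAT5B, which carry the signal of FLT3 with the duplication and of the beta chain receptors, had -0.33 and -0.038. Adaptors and kinases at the receptors had positive values in 17 of 18 genes, beside the same 49.3%, with a median of 0.18. None of the 18 had an unadjusted limma p under 0.05. The lowest p-values were those of SOS2 (log2 fold change 0.46), an exchange factor for RAS, and VAV1 (0.68), a guanine nucleotide exchange factor of blood cells.

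Negative regulators and feedback genes had 14 of 18 positive values, beside 49.3% of all genes tested, and a median of 0.15. DUSP6, a phosphatase of ERK that ERK signalling itself induces, measured 6.68 and 6.67 TPM in shNT 1 and 2, and 13.9, 6.92, 19.5 and 14.2 TPM in shLAMP5 1 to 4. In shLAMP5, 3 libraries lay well above the controls and shLAMP5 2 close to them, which gave 0.85 as log2 fold change (unadjusted limma p 0.0424, adjusted 0.541). Without shLAMP5 2 it was 1.12 (unadjusted limma p 0.000965, adjusted 0.114), a setting in which 10.6% of genes were higher at an unadjusted p under 0.05. Growth factor target genes went both ways in that setting. FOS was at -0.70 (unadjusted limma p 0.0101, adjusted 0.195), EGR1 at -0.74 and PIM1 at 0.58. CBLB, a ubiquitin ligase that removes active receptors, had 0.67, SPRY1, an inhibitor of RAS signalling, -0.44 and the phosphatase INPP5D -0.12. The STAT5 feedback genes SOCS2 and CISH stood at 47.7 to 61.1 and at 19.2 to 29.2 TPM over the 6 libraries, with log2 fold changes of -0.049 and 0.20. Both proteases known to shed IL6R and CSF1R had positive values that did not pass: ADAM17 0.44 and ADAM10 0.42. Of 13 target genes of STAT5 and growth factors, 6 were positive and 7 negative with a median of -0.056, among them the kinase PIM1 at 0.47, the survival gene BCL2L1 at 0.21, MYC at -0.43 and EGR1 at -0.57.

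Markers of other cell types were examined because KIT and IL3RA are also expressed by mast cells and basophils. Of 5 mast cell and basophil markers, 1 (TPSB2) reached 1 TPM in any library and CPA3 was listed at 0 in all, with sums of 0.967 to 1.51 TPM in shNT and 0.887 to 4.54 TPM in shLAMP5. The highest sum was that of shLAMP5 2, most of it TPSB2 at 3.92 TPM. That library also had the highest KIT value, at 2.03 TPM. IL3RA was instead highest in shLAMP5 3, at 77.2 TPM against 58.6 TPM in shLAMP5 2. A relation of these markers to either receptor was not tested. Eosinophil markers summed to 42.5 to 66.6 TPM in shNT and 33.4 to 134 TPM in shLAMP5, with 3 of 5 reaching 1 TPM (PRG2, EPX and RNASE3, which myeloid precursors also express) and CLC at most 0.171 TPM. T cell markers summed to at most 8.85 TPM, with 1 of 5 (CD3D) reaching 1 TPM, and fibroblast markers to at most 6.62 TPM, with COL1A1 as the 1 of 6. For B cell markers the sum was at most 1.80 TPM (1 of 5, CD79A), for erythroid markers at most 1.07 TPM (0 of 6) and for megakaryocyte markers at most 1.04 TPM (0 of 5).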

How the data were processed

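RNA of 6 MOLM-13 libraries (2 shNT, 4 shLAMP5) was grouped by the library titles. The authors deposited 1 table of 39771 Ensembl identifiers whose values were read as TPM, since they are fractional and sum to about the same total in each library, although no unit stands in it. The tool kallisto and the build hg19 are named, per the submitters' processing notes; version, transcript set and filters are not stated there. Symbols were matched for 29895 identifiers. Genes at or above 1 TPM in at least 2 libraries (13072) were tested on log2(TPM + 1) with limma 3.58.1 (R 4.3.3, mean-variance trend, group as the factor) and Benjamini-Hochberg adjustment at 0.05; the pseudocount understates changes of low genes. The fit was run on simulated data with known changes, as a check of their sign and size. Errors there were drawn independently for each gene, without the variation that many genes share across the real libraries. Single genes also had an exact two-sided permutation test. TPM keeps no read number, so no counting interval was computed. The receptors and gene lists were chosen with earlier results of these data known. Named were LAMP5, the receptors, list genes (from each pathway list the 2 lowest p per direction, and tested ligands and related receptors) and, for CSF3R and FLT3, the 3 genes of highest correlation; other list genes (SPI1, SOCS2, CISH and markers of cell types) were named after their values were seen, and some genes under this rule are not reported here. Alternatives were other pseudocounts, filters, scalings, priors, library weights, rows with a symbol, a replicate block and left-out libraries. Figures were drawn with matplotlib 3.10.9.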

Additional observations from a re-analysis of the deposited data

Results flagged for a closer look

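Among the shLAMP5 libraries, 35 named genes were examined for a library far from the other 3 of its group (Dixon's ratio of gap to range above its 95% critical value), which chance gives in about 1 in 20 groups. For CSF1R, shLAMP5 3 stood at 79.7 TPM, with the next library at 24.9 TPM. For IL6R, shLAMP5 2 stood at 49.7 TPM, with the next at 101 TPM. SOS2 was 7.67 TPM in shLAMP5 2, with the next at 10.1 TPM.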

How the results depend on the processing

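Over 17 alternative settings, CSF3R, CSF1R, CSF2RA and CSF2RB kept a positive log2 fold change, as did IL6ST over the 16 in which it was tested; the lowest values were 0.98, 0.55, 0.37, 0.12 and 0.41. No receptor was called in 16 of 17 settings. Library weights called 1, CSF3R (limma adjusted p 0.0215), and put LAMP5 at -1.40 (limma adjusted p 0.0302). In the main fit LAMP5 was at -1.54 (limma adjusted p 0.252, exact permutation p 0.0667), so the targeted gene itself did not pass. The count of all genes called was 210 with library weights (116 higher, 94 lower), 14 with no filter on low values, 16 with the replicate block and 0 in the others, including each left-out library. Genes at an unadjusted p under 0.05 numbered 1172, and 2857 with library weights, 1761 with no filter, 282 with the replicate block, and between 408 (without shNT 2) and 2248 (without shLAMP5 2) with 1 library left out (499 without shNT 1). The count of receptors at an unadjusted p under 0.05, taken over these settings after the data were seen, was 3, and 5 with library weights, 1 with the replicate block, and between 1 and 5 with 1 library left out. LAMP5 ran from -1.90 to -1.17 with 1 library left out. Signs turned for FLT3 with library weights (0.31) and left-out libraries (-0.44 to 0.23), for KIT with library weights (-0.044) and left-out libraries (-0.0027 to 0.29), for IL3RA with left-out libraries (-0.11 to 1.07) and for IL6R with the replicate block (-0.11). The cause was not tested. The titles share the numbers 1 and 2 between groups, but nothing states that a number pairs libraries, so it was not read as a pairing. Same-numbered libraries deviated from their group means in opposite directions (correlations of -0.52 and -0.47 across genes). With 2 shNT libraries the deviations of 1 mirror those of the other, so these correlations cannot decide whether numbers pair. The block compares libraries 1 and 2 alone, since 3 and 4 have no partner. Precision is limited by 2 shNT libraries and an unknown read depth.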
